A study of Mus musculus with 26 samples.

Results

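The miR-344 family is a group of microRNAs from a run of hairpins on mouse chromosome 7, and its 3p strands were counted in the CA1 field of the hippocampus. The 7 members are listed in the count table, which has 1915 entries in all, as mmu-miR-344-3p, mmu-miR-344b-3p, mmu-miR-344c-3p, mmu-miR-344d-3p, mmu-miR-344e-3p, mmu-miR-344f-3p and mmu-miR-344g-3p. They were chosen by name and strand, and the single measured value in the rule was that an entry have reads. All 7 had reads, and none duplicated the counts of another miR-344 entry over the 26 libraries, so none was dropped or merged. The count table listed 12 further miR-344 entries, which are the 5p strands, miR-344h and miR-344i, and these were used for comparison.

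Small RNA was sequenced in 26 libraries from 3-month-old CamkdeltaC mice, in which a form of the calcium/calmodulin-dependent kinase II delta is overexpressed and the heart fails, and from their wild type littermates. Wild type vehicle comprised 9 libraries, transgenic vehicle 7 libraries, and transgenic Vorinostat 10 libraries. Vehicle or Vorinostat (also called SAHA), an inhibitor of histone deacetylases, was given in the drinking water for 4 weeks from an age of 2 months. There was no wild type group on Vorinostat, the labels do not name the promoter of the transgene, and both sexes were used without a record of the sex per library. Nothing in the labels ties each library to its own animal, so the p-values describe the spread among libraries, which may be technical.

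A microRNA is a short strand that is cut from a hairpin precursor, loaded into an Argonaute protein and guided to messenger RNAs mainly by its seed, bases 2 to 8 from the 5′ end. Strands from the 5′ and the 3′ side of a hairpin are named 5p and 3p, and members that share a seed are predicted to share targets. The miR-344 hairpins lie beside the imprinted genes Ndn and Magel2, in the region that corresponds to the human Prader-Willi locus, and the family is known from brain.

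The mature sequences of the 7 members are shown because some members share a seed and others do not. They are RefSeq sequences on GRCm38.p6, written 5′ to 3′ with the seed in capitals, and 7 of 7 members were matched by name.
miR-344-3p: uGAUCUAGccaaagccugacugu
miR-344c-3p: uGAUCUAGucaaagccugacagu
miR-344b-3p: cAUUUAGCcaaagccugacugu
miR-344d-3p: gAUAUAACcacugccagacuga
miR-344e-3p: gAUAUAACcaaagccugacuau
miR-344f-3p: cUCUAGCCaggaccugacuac
miR-344g-3p: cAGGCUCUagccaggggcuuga

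miR-344-3p and miR-344c-3p share the seed GAUCUAG and differ by the substitutions C9U and U21A, counted from the 5′ end. The seed AUAUAAC is shared by miR-344d-3p and miR-344e-3p, which differ by C11A, U12A, A16U, G21A and A22U, all outside the seed. miR-410-3p, a microRNA of another cluster, carries that same seed. miR-344b-3p has a seed of its own but shares a run of 18 bases with miR-344-3p, read from base 6 of miR-344-3p and base 5 of miR-344b-3p. Among the RefSeq mature sequences, miR-344f-3p had no partner with its seed and miR-344g-3p shared its seed with miR-7070-3p.

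In the annotation, 13 hairpins of the family lie on the minus strand within 402 kb of chromosome 7, chr7:61683124-62085310 (GRCm38, the assembly that mm10 denotes). Of these, 8 are intronic. The long non-coding gene A230057D06Rik holds Mir344d-3, Mir344e, Mir344h-1, Mir344h-2, Mir344b, Mir344c and Mir344, and A330076H08Rik holds Mir344-2. Mir344g overlaps an exon of A330076H08Rik and runs past its end. Mir344d-1, Mir344d-2, Mir344f and Mir344i lie between annotated genes. The next protein-coding gene past Mir344i is Ndn, 261 kb away. miR-344d-3p can come from 3 of these hairpins and miR-344-3p from 2, so their counts cannot be assigned to a single hairpin.

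Library totals ran from 0.585 to 17.6 M (mega-counts) in wild type vehicle, from 6.01 to 24.8 M in transgenic vehicle and from 3.89 to 15.7 M in transgenic Vorinostat. Levels are given as CPM, which is the count divided by the library total times its TMM (trimmed mean of M-values) factor, on a scale of 1000000. The 7 neuronal markers checked all had reads, and their summed level was between 317181 and 473824 CPM in 24 libraries. Their sum was 197224 CPM in wild type vehicle replicate 1 and 425385 CPM in Vorinostat replicate 8. Wild type vehicle replicate 1, which had the fewest counts, and Vorinostat replicate 8 stood apart on the first principal component. The markers listed for sensory and thalamic cells, 3 of 3 with reads, summed to 1329 CPM in wild type vehicle replicate 1 and 511 CPM in Vorinostat replicate 8, against 50.8 to 345 CPM in the other 24. The 2 hindbrain markers summed to 95.7 and 156 CPM in those libraries, against 14.99 to 76.1 CPM. In wild type vehicle replicate 1, erythrocyte markers summed to 2033 CPM (516 to 1228 in the other 24). Microglia and leukocyte markers summed to 76.98 CPM there (243 to 499), and choroid plexus and ependyma markers to 372 CPM (442 to 763). In Vorinostat replicate 8, endothelium and vessel wall markers summed to 22633 CPM (6144 to 13945). The liver marker was below the range of the 24 in replicate 1 and above it in replicate 8. Oligodendrocyte markers were within their range in both. The part of these markers in the miR-344 levels was not tested. CA1 tissue holds several cell types, and fewer cells of a type and less RNA per cell cannot be told apart in it.

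Mean levels of the 7 members spanned 2601-fold, from miR-344d-3p to miR-344g-3p, and fell into 3 tiers. mmu-miR-344d-3p was the most abundant member, at 653.5 ± 184 CPM (SD over 26 libraries), which placed it 79 of the 1389 entries with reads. mmu-miR-344-3p followed at 293.6 ± 93.3 CPM and place 117, and it was below miR-344d-3p in 26 of 26 libraries. These were levels of strands of 21 to 23 bases, so no correction for length was made.

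The middle tier held mmu-miR-344b-3p at 15.8 ± 4.75 CPM, mmu-miR-344c-3p at 14.2 ± 3.61 CPM and miR-344f-3p at 13.5 ± 7.01 CPM, all SD over 26 libraries. These neighbours did not differ beyond their spread: miR-344b-3p exceeded miR-344c-3p in 16 of 26 libraries, and miR-344c-3p exceeded miR-344f-3p in 17 of 26. The lowest tier held miR-344e-3p at 0.556 ± 0.410 CPM and miR-344g-3p at 0.251 ± 0.261 CPM, with 165 and 85 reads over all libraries together. Both were without reads in some libraries (4 of 26 and 10 of 26), and their levels overlapped.

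Seed and level did not go together within the family. In the AUAUAAC group, miR-344d-3p exceeded miR-344e-3p by 1175-fold in mean CPM. With the same seed, miR-410-3p averaged 140.5 ± 36.8 CPM (SD, 26 libraries) and was below miR-344d-3p in 26 of 26 libraries. In the GAUCUAG group, miR-344-3p had 92420 reads over all libraries and miR-344c-3p had 4439. The AUAUAAC seed made up 66.0 ± 6.17% of the counts of the 7 members and the GAUCUAG seed 30.96 ± 5.95% (SD, 26 libraries).

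**Figure D1:**
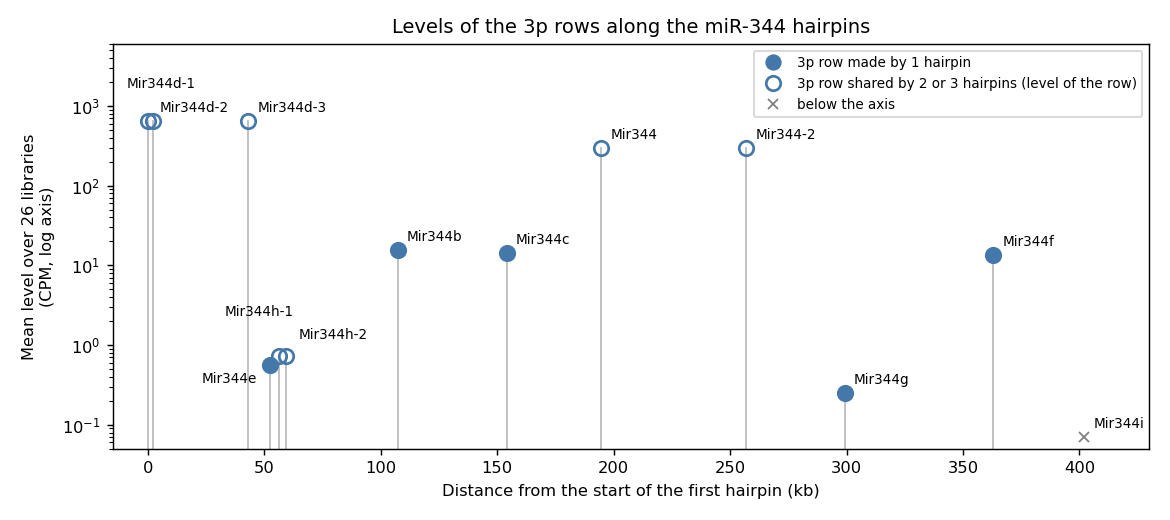
Mean level of each 3p strand over 26 libraries (CPM, log axis) against the distance of its hairpin from the start of the first one (kb). Open circles mark strands that 2 or 3 hairpins share and are drawn at the level of the strand, 653.5 CPM for miR-344d-3p and 293.6 CPM for miR-344-3p, and the cross marks miR-344i, with 1 read in all libraries together.

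The counts of miR-344-3p were even numbers in 26 of 26 libraries. miR-344h-3p, which also has 2 hairpins, was even in all 21 libraries where it had reads, while miR-344b-3p with 1 hairpin was even in 14 and miR-344d-3p with 3 hairpins in 9. Across entries with at least 200 reads, 9 of 33 with 2 RefSeq hairpins were even in every library, against 0 of 480 with 1 hairpin. The same held for 0 of 3 with 3 hairpins and for 9 of 90 that had no RefSeq match by name. With its counts divided by 2, the level of miR-344-3p was 146.8 ± 46.7 CPM and its place 152. The AUAUAAC seed then made up 77.3 ± 4.56% of the counts of the 7 members (SD, 26 libraries), and miR-344d-3p and miR-344-3p kept their order. How reads with several matches were counted is not stated in the labels.

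The 3p strand carried most reads of all the members' hairpins. It held 99.9% of the reads of miR-344, all 5178 reads of miR-344b, 99.3% of miR-344c and 99.3% of miR-344f over all libraries together. For the sparse pair it was 98.8% of miR-344e, on 165 and 2 reads, and 91.4% of miR-344g, on 85 and 8 reads, the lowest share. The miR-344d hairpins gave 97.4%, and miR-344d-3-5p, the 5p strand of Mir344d-3, had 5264 reads, more than any other 5p strand of the family. Its mean level was 20.6 ± 15.6 CPM (SD, 26 libraries), and 17.5 ± 5.90 CPM over 24 libraries without the pair that stood apart. Its sequence, shown with the seed in capitals because 5 other 5p strands of the family share that seed, is again from RefSeq.
miR-344d-3-5p: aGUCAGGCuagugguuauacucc

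The share of miR-344d-3-5p in the sum of miR-344d-3-5p and miR-344d-3p had a median of 2.61% over 26 libraries. Excluding wild type vehicle replicate 1, at 18.4% on 44 and 195 reads, this share lay between 1.71 and 3.49%. Its mean was 2.51 ± 0.255% in the other 8 wild type vehicle libraries, 2.63 ± 0.536% in the 7 transgenic vehicle libraries and 2.62 ± 0.417% in the 10 transgenic Vorinostat libraries (SD). With replicate 1 the wild type vehicle mean was 4.27 ± 5.31% (SD, n = 9). The share thus differed between groups by less than the spread between libraries. Because miR-344d-3p can also come from other hairpins, the share does not give the strand use of Mir344d-3.

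The 2 libraries that stood apart did not move all members the same way. In wild type vehicle replicate 1, miR-344d-3-5p was 5.52 times and miR-344f-3p 3.64 times the median of the other 24 libraries, and both were the highest of all 26. miR-344c-3p was lowest of all there, on 2 reads, and miR-344d-3p second lowest at 405.7 CPM. In Vorinostat replicate 8, miR-344d-3p was highest of all at 981.8 CPM, and miR-344f-3p was 2.13 times the median of the other 24.

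**Figure D2:**
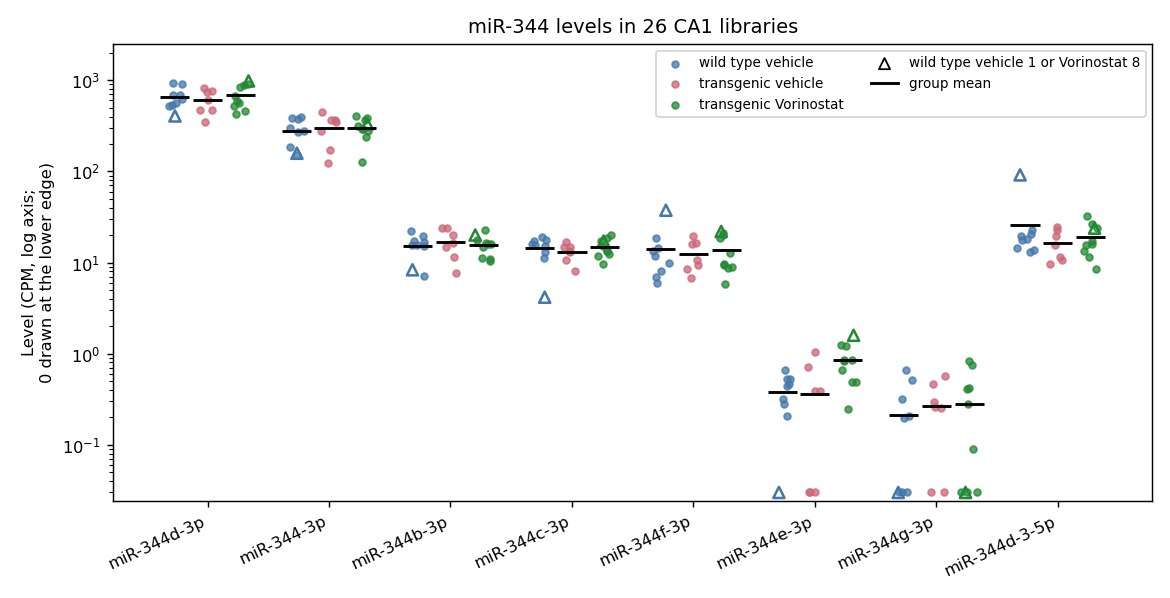
Level of the 7 members and of miR-344d-3-5p in each of 26 libraries (CPM, log axis) by group, with bars at the group means; triangles are the 2 libraries that stood apart. The members fall into 3 tiers, the groups overlap for every strand, and the highest miR-344d-3-5p point, 91.5 CPM, is wild type vehicle replicate 1.

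The genotype comparison addressed what the transgene and its heart failure go with in CA1, setting 7 transgenic vehicle against 9 wild type vehicle libraries. The leading members had similar levels in both groups. miR-344d-3p had a lowest value of 405.7, a median of 629.1 and a highest value of 927.6 CPM in wild type vehicle, and 348.8, 613.3 and 831.7 CPM in transgenic vehicle. The groups overlapped over most of their range, with 3 of 7 transgenic libraries above the wild type mean of 652.5 ± 173 CPM (SD, n = 9). The edgeR log2 difference was -0.11 (SE 0.21; 95% interval -0.55 to 0.33). Within sequencing lanes, which the column names of the count table give, it was -0.34 (SE 0.32) in lane L001 and 0.044 (SE 0.32) in lane L002.

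miR-344-3p ran from 150.9 over a median of 279.0 to 396.5 CPM in wild type vehicle, and from 123.2 over 345.9 to 451.5 CPM in transgenic vehicle. Here 5 of 7 transgenic libraries were above the wild type mean of 277.5 ± 96.3 CPM (SD, n = 9), and the highest and the lowest library of the 16 were both transgenic. The log2 difference of miR-344-3p was 0.11 (SE 0.26; interval -0.42 to 0.65), with 0.12 (SE 0.35) in lane L001 and -0.083 (SE 0.42) in lane L002. Among the middle tier it was 0.12 (SE 0.24) for miR-344b-3p, -0.18 (SE 0.20) for miR-344c-3p and -0.04 (SE 0.34) for miR-344f-3p. Without wild type vehicle replicate 1 these values were, in the same order, 0.05 (SE 0.23), -0.27 (SE 0.17) and 0.15 (SE 0.29).

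Of the 605 microRNAs that passed the filter on low counts, 0 (0% of those tested) had an edgeR quasi-likelihood adjusted p under 0.05 in the genotype comparison, and 13 had an unadjusted p under 0.05. The 5 members tested were thus all uncalled, as was every other microRNA, and none of the 5 was among the 13. miR-344e-3p and miR-344g-3p were below the filter. The 5 tested members had a median difference of -0.04, beside 0.03 for all 605, and their median size of difference was 0.11, beside 0.19 for all 605. The adjusted p of miR-344d-3p and of miR-344-3p was 0.980. DESeq2 and limma voom on the same counts also called 0 microRNAs in each of the 3 comparisons. At an unadjusted p under 0.05, DESeq2 had 18 for genotype, 26 for Vorinostat and 29 for transgenic Vorinostat against wild type vehicle, and limma voom had 7, 16 and 23.

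miR-344d-3-5p had the largest genotype difference of the tested miR-344 strands, with a range of 13.03 to 91.5 CPM in wild type vehicle (median 18.3) and 9.71 to 24.6 CPM in transgenic vehicle (median 15.4). The log2 difference was -0.51 (SE 0.36; edgeR adjusted p = 0.980). Without wild type vehicle replicate 1 it was -0.10 (SE 0.25). Within lanes it was -0.99 (SE 0.47) in lane L001, which holds that library, and 0.15 (SE 0.42) in lane L002.

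The Vorinostat comparison set 10 transgenic Vorinostat against 7 transgenic vehicle libraries and addressed what the treatment does to these microRNAs. With Vorinostat, miR-344d-3p ran from 428.1 over a median of 638.8 to 981.8 CPM, with a mean of 688.5 ± 205 CPM (SD, n = 10), against 604.9 ± 181 CPM (SD, n = 7) in transgenic vehicle. The groups overlapped, and 5 of 10 treated libraries were above the vehicle mean. The log2 difference was 0.19 (SE 0.21; interval -0.24 to 0.62), and 0.12 (SE 0.21) without Vorinostat replicate 8. It was 0.043 (SE 0.34) in lane L001 and 0.20 (SE 0.27) in lane L002.

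miR-344-3p with Vorinostat ran from 126.8 over 305.7 to 405.6 CPM, inside the range of transgenic vehicle. Its means were 303.0 ± 80.2 CPM (SD, n = 10) and 300.9 ± 117 CPM (SD, n = 7), with a log2 difference of 0.0095 (SE 0.25; interval -0.51 to 0.53), and 0.11 (SE 0.38) and -0.11 (SE 0.36) within lanes L001 and L002. The middle tier lay close together too: the log2 difference was -0.12 (SE 0.23) for miR-344b-3p, 0.19 (SE 0.20) for miR-344c-3p and 0.13 (SE 0.32) for miR-344f-3p. Again 0 of 605 microRNAs (0%) passed in edgeR, with 21 at an unadjusted p under 0.05, none of them a member. The median difference of the 5 members tested was 0.13, beside -0.01 for all 605, and the edgeR adjusted p of the 5 was between 0.836 and 0.985.

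Replicate numbers shared by both transgenic groups were used as pairs, although pairing is not established. The edgeR fit with the number as a block is given beside these values, and 146 of 579 microRNAs (25.2%) had an unadjusted p under 0.05 in it. In that fit 5 of 579 microRNAs (0.864%) passed, and none was a member: miR-129-5p, miR-182-5p and miR-379-5p were higher with Vorinostat and miR-29c-3p and miR-339-5p lower, named after their values were seen. miR-344d-3p was higher with Vorinostat in 6 of 7 pairs, with a blocked log2 difference of 0.27 (SE 0.13; edgeR adjusted p = 0.214). The 5p strand miR-344d-3-5p was also higher in 6 of 7 pairs, at 0.26 (SE 0.16; edgeR adjusted p = 0.338), whereas miR-344-3p was higher in 2 of 7 pairs, at -0.02 (SE 0.16).

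miR-344e-3p had the lowest counts but one of the members and did not enter the edgeR test. Its level ran from 0 over 0.439 to 0.662 CPM in wild type vehicle, from 0 over 0.385 to 1.05 CPM in transgenic vehicle, and from 0.247 over 0.839 to 1.59 CPM with Vorinostat. No treated library was at 0, against 3 of 7 transgenic vehicle and 1 of 9 wild type vehicle libraries, and 9 of 10 treated libraries were above the transgenic vehicle mean of 0.363 CPM. In an edgeR fit without the filter, its Vorinostat log2 difference was 1.05 (SE 0.56; adjusted p = 0.670). The lanes differed. In lane L002, 3 of 4 transgenic vehicle libraries were at 0 and the other at 0.392 CPM, against 0.492 to 1.59 CPM in 6 Vorinostat libraries. In that lane miR-344e-3p passed the filter only through Vorinostat libraries, the group where it was high, so the fit there is not used. In lane L001, 3 transgenic vehicle libraries ran from 0.385 to 1.05 CPM and 4 Vorinostat libraries from 0.247 to 0.853 CPM, and miR-344e-3p was below the filter there. These levels rest on 0 to 19 reads a library, and no adjusted p for this contrast passed in the counts.

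Set directly against wild type vehicle, the transgenic Vorinostat libraries gave log2 differences of 0.08 (SE 0.19; interval -0.32 to 0.47) for miR-344d-3p and 0.12 (SE 0.24; interval -0.36 to 0.61) for miR-344-3p. The median over the 5 members tested was 0.08, beside 0.01 for all 605. None of 605 microRNAs (0%) passed in edgeR, 19 had an unadjusted p under 0.05, and none of those was a member. The 3 comparisons share libraries pairwise, so their values for a member are not independent. Summed over the 7 members, the level was 974 ± 232 CPM (SD, n = 9) in wild type vehicle, 949 ± 287 CPM (SD, n = 7) in transgenic vehicle and 1037 ± 278 CPM (SD, n = 10) with Vorinostat, differences smaller than the spread between libraries.

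**Figure D3:**
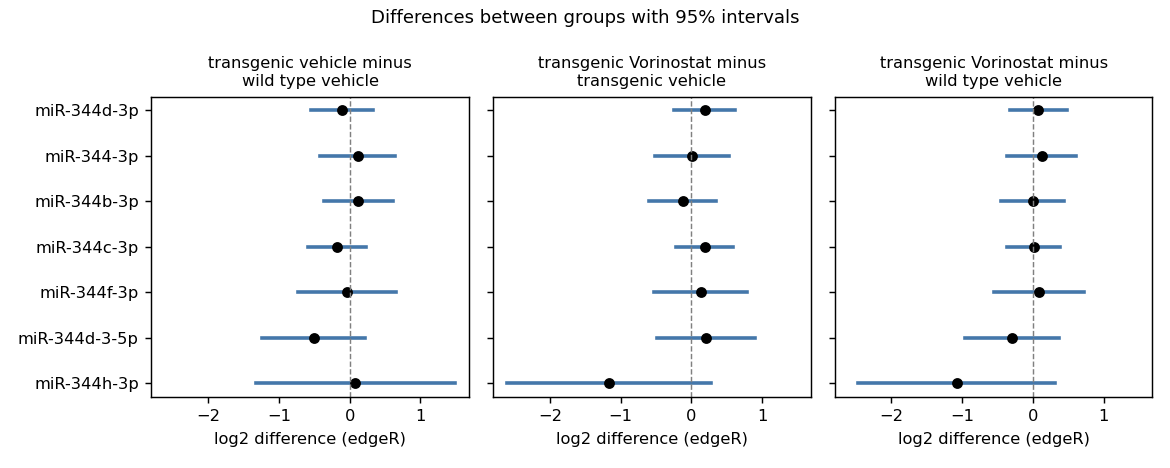
edgeR log2 differences (points) with 95% intervals (lines) of the 7 miR-344 strands that passed the filter, in the 3 comparisons. Every interval covers 0, and the intervals of the 5 members are narrower than that of miR-344h-3p, which has 248 reads in all.

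Within the groups the 5 tested members varied less than the median of all tested microRNAs over 26 libraries, but not all of them less than microRNAs of like level. The SD of log2 CPM within groups was 0.43 for miR-344d-3p, 0.56 for miR-344-3p, 0.50 for miR-344b-3p, 0.47 for miR-344c-3p and 0.69 for miR-344f-3p, beside a median of 0.73 over the 605 tested. Without the 2 libraries that stood apart it was 0.40, 0.56, 0.48, 0.31 and 0.59, beside a median of 0.50. Beside microRNAs of like level (mean log2 CPM within 1 of the member's), whose median SD was 0.40 for miR-344d-3p, 0.51 for miR-344-3p, 0.66 for miR-344b-3p, 0.64 for miR-344c-3p and 0.64 for miR-344f-3p, 3 of the 5 members varied more: miR-344d-3p, miR-344-3p and miR-344f-3p. Without the 2 libraries these medians were 0.35, 0.35, 0.46, 0.45 and 0.44, and 4 of 5 members were above them, all but miR-344c-3p.

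Across libraries the members rose and fell in part together. Pearson's r of log2 CPM over 26 libraries was 0.78 between miR-344-3p and miR-344b-3p, 0.64 between miR-344-3p and its seed partner miR-344c-3p, and 0.60 between miR-344-3p and miR-344d-3p. The highest value was between miR-344f-3p and miR-344d-3-5p, at 0.88. Points share libraries, depth and scaling factors, so these are descriptions only.

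The 2 libraries that stood apart set several of these values. Between miR-344d-3p and miR-344d-3-5p, which can both come from Mir344d-3, r was 0.37 over 26 libraries and 0.87 over the other 24. Between miR-344c-3p and miR-344d-3-5p it was -0.19 and 0.69. miR-344f-3p with miR-344d-3-5p had 0.88 and 0.85, and miR-344-3p with miR-344b-3p 0.78 and 0.76, so these pairs did not rest on them. The first principal component of all tested microRNAs was computed on all 26 libraries and not again on the 24. Over the 24, its r was -0.89 for miR-344f-3p, -0.75 for miR-344d-3p and -0.72 for miR-344-3p. It was -0.53 for miR-344c-3p and -0.27 for miR-344b-3p. Over all 26 libraries these values were, in the same order, -0.85, -0.18, -0.11, 0.39 and 0.11. The part of that component in the correlations between members was not tested.

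**Figure D4:**
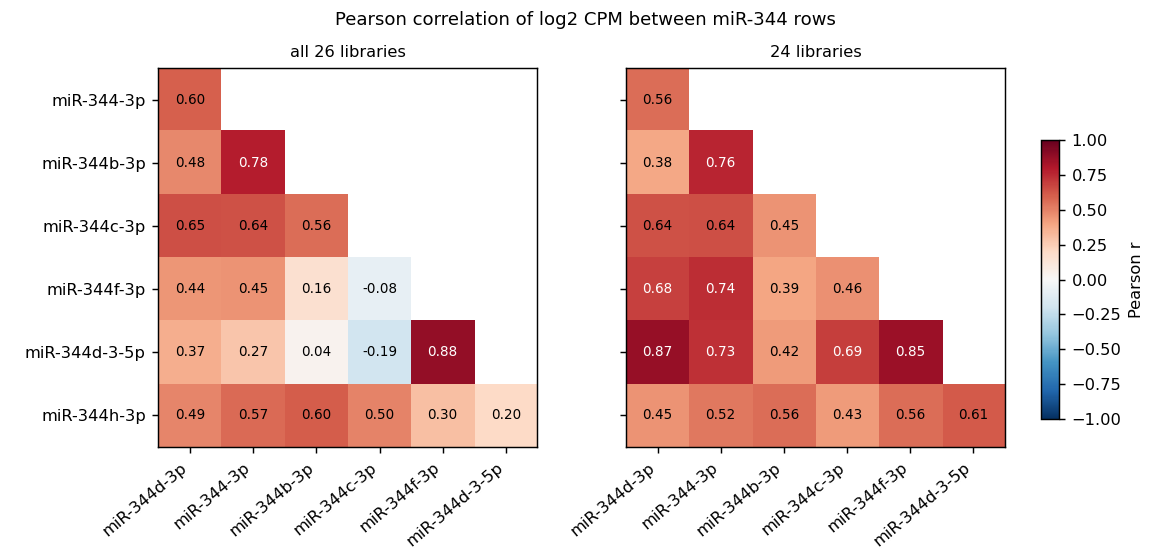
Pearson correlation of log2 CPM between the 7 tested miR-344 strands over all 26 libraries (left) and over 24 libraries, leaving out the pair that stood apart (right), with the value in each cell. miR-344d-3p and miR-344d-3-5p go from 0.37 to 0.87, while miR-344-3p and miR-344b-3p stay at 0.78 and 0.76.

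The 5 other tested microRNAs whose log2 CPM was most like that of miR-344d-3p over the 26 libraries were miR-6900-3p, with a Spearman rho of 0.81, miR-28a-5p at 0.80, miR-6989-3p at 0.78, miR-28c at 0.78 and miR-877-5p at 0.73. The median rho with miR-344d-3p over all 598 compared was 0.01. Without the 2 libraries the values of the 5 were 0.76, 0.75, 0.73, 0.73 and 0.67, and their places in the order were 13, 16, 20, 19 and 41. miR-6900-3p and miR-6989-3p had mean levels of 0.790 and 1.29 CPM.

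The authors' deposited table of normalized log2 values holds 674 microRNAs, among them 6 of the 7 members, without miR-344g-3p. The method behind these values is not stated in the labels or the file, and their Pearson correlation with log2 CPM across the 26 libraries was between 0.51 for miR-344e-3p and 0.74 for miR-344c-3p. In limma on these values, 366 of 674 microRNAs (54.3%) had an adjusted p under 0.05 in the genotype comparison. Among the members 3 of 6 passed, a share near that background. miR-344-3p had a log2 difference of -0.53 (limma adjusted p = 0.0473), miR-344f-3p -0.62 (0.00984) and miR-344e-3p 0.48 (0.00342). The difference of miR-344-3p was 0.11 in the counts, so its direction turned with the processing.

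For miR-344e-3p the authors' values ran from -1.54 to -0.90 in wild type vehicle and from -0.89 to -0.57 in transgenic vehicle. Its counts overlapped and included 3 transgenic libraries with 0 reads. How many of the 674 microRNAs have groups that far apart in the authors' values was not determined. Vorinostat against vehicle gave 360 of 674 calls (53.4%) in limma on the authors' values, with 1 of 6 members, miR-344f-3p at 0.62 (limma adjusted p = 0.00782). Transgenic Vorinostat against wild type vehicle gave 6 of 674 (0.89%), and the single member was miR-344e-3p, at 0.58 (limma adjusted p = 0.00596). In the counts its fit without the filter gave 0.89 (SE 0.52; edgeR adjusted p = 0.587) for the same contrast.

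The authors' deposited module table, which gives each microRNA a membership from -1 to 1 in co-expression modules, placed the members in 3 modules. miR-344-3p, miR-344b-3p and miR-344c-3p were in brown, a module of 34, with memberships of 0.76, 0.84 and 0.78. miR-344f-3p, at 0.94, and miR-344d-3p were in blue, a module of 197, together with miR-344d-3-5p at 0.90. The membership of miR-344d-3p in blue was 0.27 in the authors' deposited table, below its 0.60 in yellow. miR-344e-3p was in turquoise, a module of 404, at 0.30. The modules were built from these same libraries and are not independent of them.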

How the data were processed

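Libraries came from the TruSeq Small RNA protocol and 50 bp single reads of a HiSeq2000, per the labels' protocols. FastQC 0.11.5 and the mm10 build appear in the submitters' processing notes, and no aligner, annotation or counting rule was found in the labels or files. The authors deposited raw counts per mature microRNA for 26 libraries, a table of normalized log2 values, and, per the file headers, module membership scores from -1 to 1 with p-values of membership; those deposited p-values were not used.

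edgeR 4.0.16 (R 4.3.3) was run on the counts with its quasi-likelihood test, TMM factors and filterByExpr (minimum count 10, minimum total 15), which kept 605 of 1915 entries. A single model covered the 3 groups without covariates. Tests were two-sided with Benjamini-Hochberg adjustment over all microRNAs tested, and an adjusted p under 0.05 counted as passing. In simulated data for the Vorinostat comparison, on 593 microRNAs, 71.6% of changes of 1 on the log2 scale and 97.8% of changes of 2 were recovered. A large part of the simulated microRNAs was given a change, which makes the adjustment more lenient than in the real data, where 0 passed. These shares therefore do not give the share of such changes that would pass in the real data. Correlations used log2 CPM with a prior count of 2. Alternatives were limma 3.58.1, DESeq2 1.42.0, other scalings and filters, lanes, a replicate block, and leaving out libraries. Members, lists and tests were chosen with earlier results of these data known. Named microRNAs were all miR-344 entries and the 5 most like miR-344d-3p. miR-410-3p and miR-7070-3p were added for their seed. The 5 that passed in the fit with the replicate block were named after their values were seen.

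Replicate numbers in the labels were checked as pairs by the correlation of deviations from group means. Both transgenic groups gave 7 pairs with r from 0.265 to 0.599, all over 0.1. The library of the same number was the best match in 3 of 7, and most of these pairs share a lane. The numbers were used as pairs there, but pairing is not established. The pairs with wild type gave r from -0.451 to 0.458 and from -0.512 to 0.580. Of these, 4 of 6 and 6 of 9 were over 0.1, and the numbers were not taken as pairs.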

Additional observations from a re-analysis of the deposited data

Results flagged for a closer look

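Of 30 sets of values tested (10 strands or sums in 3 groups), 3 held a library whose gap to the nearest other exceeded Dixon's 95% critical value; chance flags about 1 in 20. miR-344f-3p was 37.4 CPM in wild type vehicle replicate 1, with the next library at 18.8 CPM. miR-344d-3-5p was 91.5 CPM in the same library, with the next at 22.5 CPM. Both rest on the shallowest library, with 18 and 44 reads. miR-344h-3p was 3.72 CPM in transgenic vehicle replicate 10, with the next at 1.12 CPM.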

How the results depend on the processing

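In the fits on the counts no miR-344 strand passed the threshold in any comparison. Among the alternative values counted below, sign changes concern edgeR values smaller than their SE, except the genotype value of miR-344d-3-5p, -0.51 (SE 0.36). The number of microRNAs called stayed at 0 except in the Vorinostat comparison with the replicate block, 5 of 579, likewise 5 of 567 with its 7 pairs only, and on the authors' normalized values, where limma called 366 for genotype, 360 for Vorinostat and 6 for transgenic Vorinostat against wild type vehicle. Halved even counts, the 7 pairs alone and the authors' values were tried after seeing the data. Alternative values were counted for the tested strands except miR-344h-3p, and for transgenic Vorinostat against wild type vehicle only for miR-344d-3p and miR-344-3p. Of these 202 values, 160 kept their direction and their side of the threshold, 38 changed sign and 4 newly passed in the same direction. Those 4, and the reversed genotype value of miR-344-3p, which also passed, were all on the authors' values. The 40 alternative group levels stayed within 1 SD.

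For genotype, miR-344f-3p, at -0.04, was 0.0025 with library totals only, 0.10 with limma voom, 0.013 without the filter, 0.21 in lane L002 and 0.15 without wild type vehicle replicate 1, alone or with Vorinostat replicate 8, and -0.031 without the latter alone. In lane L002 miR-344-3p was -0.083, miR-344d-3p 0.044 and miR-344d-3-5p 0.15. On the authors' values miR-344-3p was -0.53 and miR-344b-3p -0.43.

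For Vorinostat, miR-344-3p, at 0.0095, was -0.052 with DESeq2 and with RLE factors, -0.13 with library totals only, -0.024 without the filter, -0.0072 with even counts halved, -0.11 in lane L002, -0.0043 without Vorinostat replicate 8, -0.0067 without wild type vehicle replicate 1 and -0.020 without both. miR-344f-3p was -0.026 with library totals only, a scaling that moved the median of all 605 from -0.01 to -0.14. On the authors' values miR-344b-3p was 0.14 and miR-344c-3p -0.0070.

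For transgenic Vorinostat against wild type vehicle, miR-344d-3p, at 0.08, was -0.0061 with DESeq2, -0.0045 with RLE factors, -0.048 with library totals only, -0.030 with lane as a covariate, -0.30 in lane L001, -0.028 without wild type vehicle replicate 1, 0.0082 without Vorinostat replicate 8 and -0.092 without both. On the authors' values it was -0.13 and miR-344-3p -0.24, and in lane L002 miR-344-3p was -0.19. The cause of these changes was not tested.

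With the replicate block, sign changes were miR-344-3p at -0.0069 and miR-344f-3p at 0.21 for genotype, miR-344-3p at -0.016 for Vorinostat and -0.0098 with the 7 pairs only, and miR-344d-3p at -0.024 against wild type. The block called 0 in the genotype and the treated against wild type comparisons, where the numbers were not taken as pairs.

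Depth limits miR-344e-3p and miR-344g-3p, with 165 and 85 reads in all, and every strand in wild type vehicle replicate 1, where the 7 members together had 295 reads.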
